A study of Mus musculus with 8 samples.

Results

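The genes described here are the expressed Zfp genes of the mouse, the numbered series of symbols that mouse nomenclature gives to zinc finger proteins. A member is a table entry whose symbol is Zfp followed by digits only, that is listed at 1 locus, that is not Zfp42, Zfp57 or Zfp281, and that reached at least 1 FPKM (a level per kilobase of transcript, scaled to the size of the library) in at least 4 of 8 libraries. Of 340 matching symbols, 334 were at 1 locus and outside the 3 exclusions, and 289 of these were members, among 11556 genes that passed the same FPKM rule. The rule used the level of each gene over all libraries, so the levels are a description. It did not use the difference between states, except that 12 members passed through 1 state alone. Those had to differ between states, so their separation is a description: Zfp600, Zfp534, Zfp936, Zfp819, Zfp931 and Zfp273 were at 1 FPKM or more in mESC alone, and Zfp503, Zfp30, Zfp316, Zfp202, Zfp558 and Zfp128 in mEpiSC alone.

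Polyadenylated RNA of mouse cells in 2 pluripotent states was sequenced in 4 libraries per state. The naive state was that of embryonic stem cells (mESC), which were grown with the cytokine LIF and came from the lines ESF122 (mESC 1 and 2) and ESF175/1 (mESC 3 and 4). The primed state was that of epiblast stem cells (mEpiSC), which were kept in FGF2, a growth factor, and came from EpiSC5 (mEpiSC 1), EpiSC7 (mEpiSC 2 and 3) and EpiSC9 (mEpiSC 4). Both states shared a feeder layer of irradiated mouse embryonic fibroblasts, taken off before RNA extraction, and a medium with serum replacement, so state, line, growth factor and way of passaging change together and cannot be told apart. No genotype was altered per the labels, and no label says that the libraries of a line came from separate cultures, so the p-values measure only the spread between these libraries, which may be technical.

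Most Zfp proteins bind DNA through a row of C2H2 fingers, small loops held by a zinc ion between a pair of cysteines and a pair of histidines. Many also carry a KRAB domain at their amino end, which recruits the corepressor Trim28 (KAP1) and through it the histone methyltransferase Setdb1 and heterochromatin proteins. KRAB zinc finger genes lie in clusters of close relatives that arose by duplication, and they are known in pluripotent cells for silencing retroviruses and other transposable elements and for protecting imprinted regions. Other Zfp symbols name unrelated proteins, among them RNA-binding proteins and developmental corepressors.

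All 6 naive markers tested were lower in mEpiSC and 5 of 6 primed markers were higher, while 0 of 4 general pluripotency markers passed the test. One mESC library, mESC 2, also held primed markers: T was at 38.8 FPKM there, beside 1.95 to 2.94 FPKM in the other mESC libraries and 20.9 to 46.8 FPKM in mEpiSC, Fgf8 at 21.6 FPKM and Fgf5 at 8.61 FPKM. T and Fgf8 overlap between the states. Genes of the sex chromosomes split the lines as well: Xist was at 36.1 to 41.0 FPKM in mEpiSC 2 to 4 and under 2 FPKM in the other libraries, and the Y-linked Eif2s3y was under 0.5 FPKM in mEpiSC 2 to 4 and at 26.0 to 49.0 FPKM in the others. Of 4 X-linked members, 2 rose (Zfp275 and Zfp449) and 1 fell (Zfp185), beside 23.1% higher and 14.2% lower of all genes tested. The part of the sex chromosomes in these calls was not tested. Fibroblast markers differed between libraries: their summed level was 13.4 to 298 FPKM in mESC and 102 to 557 FPKM in mEpiSC, 6 of 14 tested markers were higher in mEpiSC, and none was at 0 in any library. The replicate 4 libraries of both states stood apart from the others on the second principal component (16.9% of variance, against 63.2% for the first, which separated the states).

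Expressed Zfp genes were mostly of low level. The median member had a mean of 4.59 FPKM over the 8 libraries, against 10.1 FPKM for all 11556 genes, and 244 of 289 members reached 1 FPKM in all 8 libraries. The number of members at 1 FPKM or more was 268 to 278 in the mESC libraries and 273 to 280 in the mEpiSC libraries. Their summed level was 2060 to 2222 FPKM in mESC and 1871 to 2303 FPKM in mEpiSC, and the 2 ranges overlap. At the edge of the rule, the fourth highest FPKM was 1.02 for Zfp3, 1.05 for Zfp169 and 1.07 for Zfp773, the 3 members just inside, and 0.975 for Zfp398, 0.938 for Zfp575 and 0.935 for Zfp595, the 3 genes just outside.

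Between the 2 states, 51 members rose in mEpiSC and 45 fell, by limma at an adjusted p under 0.05 over all tested genes, and 193 missed the test. The 12 members that passed through 1 state alone are 6 of the risers and 6 of the fallers, and without them 45 of 277 rose and 39 fell. The full counts are 17.6% and 15.6% of the members. Over all genes tested the same call was made for 23.1% higher and 14.2% lower, 37.3% in either direction, beside 33.2% of members. The share of members that fell is near the background and the share that rose is below it. A change of at least 2-fold was called for 14 members in each direction, 4.84% of members, beside 9.93% of all genes higher and 5.19% lower. The 4 and 4 libraries did not overlap for 55 members higher and 48 lower, beside 22.2% and 14.9% of all genes (37.1% in either direction). Without the 12 members fixed by the rule, 14 of 277 were called higher and 10 lower at 2-fold or more. Without them, 49 higher and 42 lower did not overlap. The median log2 fold change, mEpiSC over mESC on the log2(FPKM + 1) scale, was 0.05 for members and 0.08 for all genes. That scale understates the change of genes near or below 1 FPKM.

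The split between rises and falls depended on how libraries were scaled. Rises were 53.1% of the members' calls with the FPKM as deposited, 41.5% (39 higher, 55 lower) with median ratio scaling and 33.3% (33 higher, 66 lower) with quantile normalization, which moved the median of all genes from 0.08 to -0.01 and -0.02. The same share over all genes tested moved with it, from 61.9% to 51.0% and 49.8%. Without the replicate 4 libraries the calls were 68 higher and 51 lower, and with the fibroblast markers as a covariate 35 and 35. Without mESC 1, the mESC library of highest fibroblast signal, they were 35 and 31. Similar counts came without mESC 3 (34 and 34) and without mEpiSC 3 (34 and 36). When the libraries of each line were averaged first, which leaves 2 mESC lines against 3 mEpiSC lines, 10 members were called higher and 19 lower, beside 7.49% and 4.82% of all genes. Leaving out single libraries gave 34 to 63 higher and 31 to 47 lower. In bulk RNA, fewer cells of a type and less RNA per cell cannot be told apart.

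**Figure D1:**
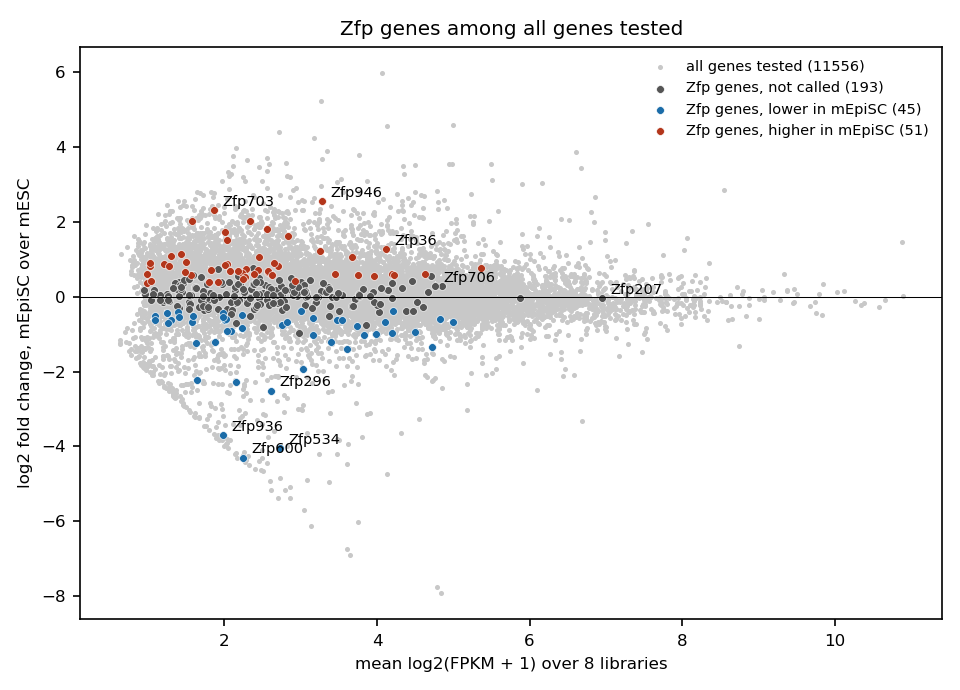
Log2 fold change between states (y axis) against mean log2(FPKM + 1) over 8 libraries (x axis) for 11556 genes tested (grey) and 289 Zfp genes, coloured by call. Most Zfp genes lie close to 0, 51 are called higher and 45 lower in mEpiSC, and Zfp600, Zfp534 and Zfp936 lie lowest among them.

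The largest falls were in Zfp600 and Zfp534, KRAB zinc finger genes in the same stretch of chromosome 4. Zfp600 (chr4:146124224-146166150, mm9, as listed) was at 26.5, 13.9, 25.1 and 17.4 FPKM in mESC 1 to 4 and 0.0726, 0.0636, 0.0536 and 0.106 FPKM in mEpiSC 1 to 4. Zfp534 (chr4:147047611-147076662) was at 27.5, 18.5, 34.4 and 25.5 FPKM in mESC 1 to 4 and 0.494, 0.867, 0.723 and 0.496 FPKM in mEpiSC 1 to 4. In mEpiSC both stayed under 1 FPKM. The log2 fold change was -4.29 (SE 0.20) for Zfp600 and -4.04 (SE 0.19) for Zfp534, given as descriptions since both are among the 12 members that passed through 1 state alone. These genes share sequence with relatives: 85.0% of the 50-base windows of Zfp600 transcripts and 70.4% of those of Zfp534 also occur in transcripts of other genes. How reads that match several of them were divided is not given in the sources used here, so the value of each single gene is uncertain.

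The stretches just upstream of both genes are close copies. Over the 215 aligned bases of the 250 before each annotated start, 196 were identical (91.2%). Both are printed 5′ to 3′ to show how alike they are, from RefSeq on GRCm38.p6, Zfp600 at chr4:146156577-146156826, plus strand and Zfp534 at chr4:147702632-147702881, minus strand. Capitals mark bases with no identical partner in the alignment, including the unaligned ends.
Zfp600: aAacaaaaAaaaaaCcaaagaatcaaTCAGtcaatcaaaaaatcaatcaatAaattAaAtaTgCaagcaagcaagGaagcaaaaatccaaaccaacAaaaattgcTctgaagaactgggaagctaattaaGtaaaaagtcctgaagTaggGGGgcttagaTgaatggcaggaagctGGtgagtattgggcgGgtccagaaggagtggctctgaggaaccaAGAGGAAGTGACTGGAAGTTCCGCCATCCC
Zfp534: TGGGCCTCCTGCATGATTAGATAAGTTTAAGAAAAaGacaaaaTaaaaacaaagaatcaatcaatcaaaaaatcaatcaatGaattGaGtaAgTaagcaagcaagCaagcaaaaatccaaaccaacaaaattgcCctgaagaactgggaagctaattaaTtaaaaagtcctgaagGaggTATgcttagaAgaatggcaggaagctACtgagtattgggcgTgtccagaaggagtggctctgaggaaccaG

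A run of entries around these genes was lower, while genes beyond it were not. In the order of the tested entries along chromosome 4, an unbroken run of 14 was lower in mEpiSC, from Smarca5-ps to Gm13157 (chr4:145054112-147183897, mm9), and it holds Zfp600, Zfp534 and 12 entries that are no members. It was the longest run of lower calls on any chromosome, and all 14 calls held under both scalings, 11 with the fibroblast covariate and 9 with averaged lines. The 12 other entries, nearly all with Gm or Rik symbols, had log2 fold changes of -5.07 to -0.55 with a median of -1.77, and 10 of them fell at least 2-fold. Membership goes by symbol, and whether these entries are zinc finger genes under other names was not looked up. The next entries outside the run, Tnfrsf1b (0.44) and Rps19-ps3 (0.07), were not lower. Within 500 kb of Zfp600 or Zfp534, 4 of 23 other tested entries were higher and 9 lower, and the 4 were Fv1 (1.95), a restriction factor of retroviruses, Miip (1.06), Plod1 (0.90) and Fbxo44 (0.51). For Zfp534 alone the counts were 4 higher and 5 lower of 19, with a median of 0.07. For Zfp600 alone they were 0 higher and 6 lower of 6, with a median of -1.27. The lower entries counted here lie in the run. Of all genes tested, 23.1% were higher and 14.2% lower. Zfp933, the member beyond the run, was at 1.65, 1.75, 1.52 and 1.2 FPKM in mESC 1 to 4 and 2.51, 2.01, 1.92 and 1.32 FPKM in mEpiSC 1 to 4, with overlap between the states (log2 fold change 0.21, SE 0.16, adjusted p = 0.353). The run was looked for after the values of Zfp600 and Zfp534 were seen, and shared sequence among its genes limits what each shows on its own. Zfp600, Zfp534, Gm13242 (-5.07), Gm13247 and Gm13051 passed the FPKM rule through mESC alone, so they had to be lower in mEpiSC. The length of the run and its fold changes are therefore descriptions.

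Zfp936, Zfp819 and Zfp296 on chromosome 7 also fell. Zfp936 (chr7:50432957-50447479), a KRAB gene, was at 16.6, 8.27, 19.5 and 11.0 FPKM in mESC 1 to 4 and 0.0631, 0.112, 0.141 and 0.0771 FPKM in mEpiSC 1 to 4. Each mESC library was at 8 FPKM or more and each mEpiSC library under 0.15 FPKM (log2 fold change -3.69, SE 0.24). Zfp819 (chr7:50862538-50873649), a KRAB gene known for silencing of transposable elements in pluripotent cells, was at 5.02, 4.73, 5.97 and 7.5 FPKM in mESC 1 to 4 and 0.0204, 0.98, 0.333 and 0.618 FPKM in mEpiSC 1 to 4. Its log2 fold change was -2.22 (SE 0.23), and like Zfp936 it passed the FPKM rule through mESC alone. Zfp296 (chr7:20162635-20166005), a pluripotency-associated factor known for helping reprogramming, was at 12.9, 12.4, 16.2 and 13.0 FPKM in mESC 1 to 4 and 0.853, 1.6, 1.38 and 2.78 FPKM in mEpiSC 1 to 4. The 4 mESC libraries lay close together and far above the mEpiSC libraries, of which EpiSC9 was highest (log2 fold change -2.51, SE 0.21, adjusted p = 8.93e-05).

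The other 5 of the 10 largest falls were smaller. The 10 largest falls and the 10 largest rises were taken among called members whose libraries did not overlap between states. That lack of overlap is therefore no result for these genes. Zfp459 was at 7.19, 4.74, 16.7 and 9.71 FPKM in mESC 1 to 4 and 0.983, 1.19, 1.07 and 0.853 FPKM in mEpiSC 1 to 4 (log2 fold change -2.27, SE 0.30, adjusted p = 0.000813). It was near 1 FPKM in all mEpiSC libraries and spread widely in mESC. Zfp229, with 16 fingers and a KRAB box, was at 20.0, 11.4, 18.9 and 11.8 FPKM in mESC 1 to 4 and 3.3, 3.61, 3.43 and 2.47 FPKM in mEpiSC 1 to 4 (log2 fold change -1.94, SE 0.21, adjusted p = 0.000287). Zfp493 was at 4.08, 3.42, 3.98 and 3.54 FPKM in mESC 1 to 4 and 0.722, 1.35, 1.11 and 0.982 FPKM in mEpiSC 1 to 4 (log2 fold change -1.23, SE 0.14, adjusted p = 0.000466). Both kept a measurable level in mEpiSC. Zfp428 was at 40.2, 32.9, 42.3 and 50.5 FPKM in mESC 1 to 4 and 14.4, 18.8, 11.0 and 19.4 FPKM in mEpiSC 1 to 4 (log2 fold change -1.34, SE 0.20, adjusted p = 0.00124), the highest level in mEpiSC among these 10. The remaining one, Zfp809, is described with the genes of host defence.

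Zfp946 (chr17:22561234-22593656), a KRAB gene on chromosome 17, had the largest rise. It was at 2.75, 4.54, 2.94 and 2.09 FPKM in mESC 1 to 4 and 23.6, 29.1, 32.1 and 11.7 FPKM in mEpiSC 1 to 4. The lowest mEpiSC library, EpiSC9, was above the highest mESC library, and the other 3 were at 23 FPKM or more (log2 fold change 2.56, SE 0.31, adjusted p = 0.000492). Zfp703 and Zfp521, developmental regulators, came from low levels in mESC. Zfp703 (chr8:28087807-28091934), a corepressor of the NET family, was at 0.659, 1.95, 0.277 and 0.162 FPKM in mESC 1 to 4 and 10.6, 4.36, 8.07 and 6.69 FPKM in mEpiSC 1 to 4 (log2 fold change 2.30, SE 0.33, adjusted p = 0.00112). Zfp521 (chr18:13845522-14131242), known for a role in early neural differentiation, was at 0.401, 1.03, 0.243 and 0.38 FPKM in mESC 1 to 4 and 3.73, 3.18, 5.52 and 8.99 FPKM in mEpiSC 1 to 4 (log2 fold change 2.01, SE 0.29, adjusted p = 0.00104). EpiSC5 was the highest library for Zfp703 and EpiSC9 for Zfp521.

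Among the other large rises, Zfp608 was at 1.85, 4.12, 0.857 and 0.444 FPKM in mESC 1 to 4 and 10.0, 10.4, 12 and 5.71 FPKM in mEpiSC 1 to 4 (log2 fold change 2.03, SE 0.38, adjusted p = 0.00373). Its mESC libraries ran over a wide range, with ESF175/1 below ESF122. Zfp362 was at 2.54, 4.01, 1.82 and 1.01 FPKM in mESC 1 to 4 and 12.2, 11.7, 13.7 and 4.95 FPKM in mEpiSC 1 to 4 (log2 fold change 1.80, SE 0.35, adjusted p = 0.00422). Zfp629 was at 1.36, 2.71, 0.88 and 0.463 FPKM in mESC 1 to 4 and 7.01, 7.49, 9.17 and 3.17 FPKM in mEpiSC 1 to 4 (log2 fold change 1.73, SE 0.35, adjusted p = 0.00489). In both genes EpiSC9 was the lowest mEpiSC library and mESC 2 the highest mESC library. Their calls were lost when libraries of a line were averaged (adjusted p = 0.0684 for Zfp362 and 0.0693 for Zfp629).

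Zfp334, a KRAB gene, was at 3.31, 4.82, 2.14 and 2.5 FPKM in mESC 1 to 4 and 11.5, 10.9, 12.9 and 10.8 FPKM in mEpiSC 1 to 4 (log2 fold change 1.62, SE 0.20, adjusted p = 0.000506). Zfp768 was at 1.13, 2.44, 1.11 and 1.23 FPKM in mESC 1 to 4 and 6.01, 6.42, 6.68 and 4.62 FPKM in mEpiSC 1 to 4 (log2 fold change 1.51, SE 0.20, adjusted p = 0.00074). The mEpiSC libraries of each lay within a narrow range above all mESC libraries. Zfp358 was at 4.3, 7.1, 3.93 and 6.32 FPKM in mESC 1 to 4 and 11.6, 12.8, 15.6 and 14.4 FPKM in mEpiSC 1 to 4 (log2 fold change 1.21, SE 0.19, adjusted p = 0.00151). Zfp36, the RNA-binding protein tristetraprolin that speeds decay of messages with AU-rich elements, was at 13.8, 18.2, 7.21 and 5.63 FPKM in mESC 1 to 4 and 29.3, 24.1, 25.4 and 25.3 FPKM in mEpiSC 1 to 4 (log2 fold change 1.28, SE 0.31, adjusted p = 0.0116). Its mEpiSC libraries were close together, and its mESC libraries split by line. The call of Zfp36 was lost with the fibroblast covariate (adjusted p = 0.0992) and with averaged lines (adjusted p = 0.0709).

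Markers of fibroblasts and of the primed state also differed among the mESC libraries. The summed fibroblast level was 298, 47.7, 59.9 and 13.4 FPKM in mESC 1 to 4, and primed markers were highest in mESC 2, as given above. All 10 genes of largest rise were higher in mESC 2 than in mESC 1, and 6 of the 10 were lowest in mESC 4. This order was not counted over all genes, so it cannot be called particular to these 10. With the fibroblast covariate 9 kept the call, all but Zfp36, and without mESC 2 all 10 kept it. The part of feeder RNA or of primed marker expression in these values was not tested.

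**Figure D2:**
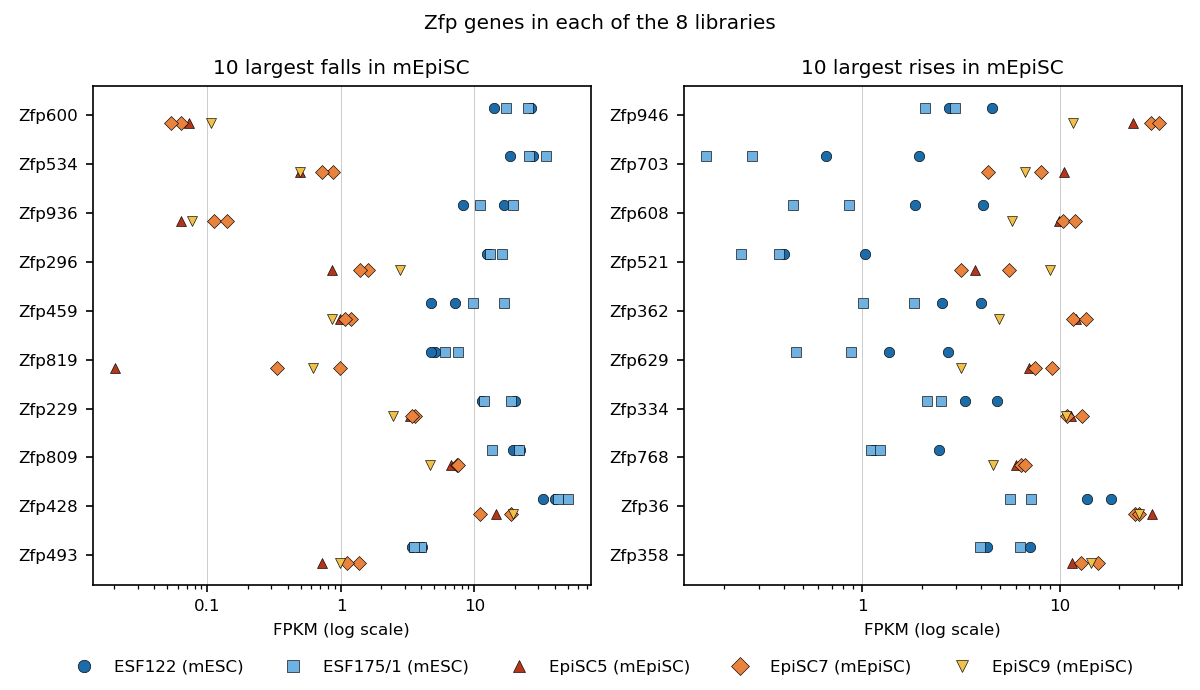
FPKM on a log axis in each of the 8 libraries for the 10 largest falls (left) and 10 largest rises (right), marked by cell line, with mESC in blue and mEpiSC in red to yellow. The 20 genes were taken among called members whose 4 mESC and 4 mEpiSC libraries do not overlap, so that lack of overlap is no result. The FPKM rule also fixed it for Zfp600, Zfp534, Zfp936 and Zfp819.

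The 6 members listed for host defence and imprint control included 0 that rose and 4 that fell, with a median log2 fold change of -0.48, beside 23.1% higher and 14.2% lower of all genes. One of the 4, Zfp819, had to differ by the FPKM rule, and the list is small: 3 fell with the random block, with the fibroblast covariate and without any 1 mESC library, mEpiSC 1 or mEpiSC 3, and 2 with averaged lines. Zfp809, a KRAB protein that silences murine leukaemia viruses in embryonic cells by binding their primer binding site, was at 21.9, 19.5, 21.7 and 13.5 FPKM in mESC 1 to 4 and 6.65, 7.4, 7.53 and 4.68 FPKM in mEpiSC 1 to 4 (log2 fold change -1.41, SE 0.19, adjusted p = 0.000884). The lowest mESC library was above the highest mEpiSC library. Zfp568, a KRAB protein that represses a placental promoter of Igf2, was at 31.9, 32.6, 33.5 and 37.8 FPKM in mESC 1 to 4 and 28.4, 20.6, 21.5 and 19.0 FPKM in mEpiSC 1 to 4 (log2 fold change -0.59, SE 0.14, adjusted p = 0.00986). Zfp932, known for repression of endogenous retroviruses, was at 8.22, 7.99, 7.9 and 8.29 FPKM in mESC 1 to 4 and 5.71, 7.04, 5.87 and 5.64 FPKM in mEpiSC 1 to 4 (log2 fold change -0.37, SE 0.11, adjusted p = 0.0319). Zfp568 and Zfp932 kept most of their level in mEpiSC, and 45.2% of the windows of Zfp932 are shared with other genes. Zfp819, above, is the remaining faller. Zfp445 (mean 23.4 FPKM in mESC, 25.9 FPKM in mEpiSC), a guardian of imprinted regions, and Zfp708 (1.64 FPKM and 1.69 FPKM) missed the test. The call of Zfp568 was lost with averaged lines, and that of Zfp932 in 9 settings, among them the random block, the fibroblast covariate and leaving out any of 6 single libraries.

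Of 11 members listed for pluripotency and development, 3 rose (Zfp521, Zfp703 and Zfp503) and 1 fell (Zfp296), beside 23.1% higher and 14.2% lower of all genes. Zfp503, the close relative of Zfp703, was at 0.737, 0.859, 0.257 and 0.199 FPKM in mESC 1 to 4 and 1.23, 1.5, 2.44 and 2.17 FPKM in mEpiSC 1 to 4 (log2 fold change 0.91, SE 0.21). It is a member through mEpiSC alone, so its separation is a description. The 7 that missed the test had mean levels from 4.64 to 126 FPKM in the states.

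Of 7 members listed for chromatin, 1 rose and 1 fell, beside 23.1% higher and 14.2% lower of all genes. Zfp687 and Zfp532 are known as partners in a complex with the reader protein Zmynd8. Zfp687 was at 13.3, 17.7, 13.2 and 13.2 FPKM in mESC 1 to 4 and 25.1, 25.5, 23.5 and 14.9 FPKM in mEpiSC 1 to 4 (log2 fold change 0.58, SE 0.19, adjusted p = 0.0366), with mEpiSC 4 inside the mESC range. Zfp532 was at 18.1, 14.9, 19.2 and 14.3 FPKM in mESC 1 to 4 and 9.26, 10.2, 11.2 and 6.92 FPKM in mEpiSC 1 to 4 (log2 fold change -0.77, SE 0.17, adjusted p = 0.00678), without overlap. The call of Zfp687 was lost in 11 settings, both scalings among them, and that of Zfp532 with averaged lines. Zfp91 was at 14.9, 17.3, 15.2 and 13.2 FPKM in mESC 1 to 4 and 25.2, 19.5, 22.1 and 14.4 FPKM in mEpiSC 1 to 4 and Zfp644, a partner of the G9a methyltransferase, at 13.0, 15.1, 13.4 and 14.1 FPKM in mESC 1 to 4 and 16.0, 15.5, 15.8 and 10.0 FPKM in mEpiSC 1 to 4, both with overlap and past no test (adjusted p = 0.118 and 0.933).

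Of 12 members listed for RNA and ribosome, 1 rose (Zfp36) and 2 fell (Zfp110 and Zfp259), beside 23.1% higher and 14.2% lower of all genes. Zfp110 is known as a binding partner of the neurotrophin receptor p75 and not for RNA. It was at 26.6, 22.7, 24.8 and 24.4 FPKM in mESC 1 to 4 and 9.46, 13.3, 11.2 and 14.9 FPKM in mEpiSC 1 to 4 (log2 fold change -0.97, SE 0.15, adjusted p = 0.00135), without overlap. Zfp259 (now Zpr1) was at 18.5, 19.4, 18.8 and 24.4 FPKM in mESC 1 to 4 and 14.7, 14.9, 14.3 and 16.7 FPKM in mEpiSC 1 to 4 (log2 fold change -0.39, SE 0.12, adjusted p = 0.0334). Its call was lost in 10 settings. The role lists were drawn up with earlier results of these data known, so their counts are descriptions.

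The 5 members of highest level were Zfp207, Zfp106, Zfp664, Zfp740 and Zfp219. Zfp207 (BuGZ), which helps chromosomes attach to the spindle, was at 127, 149.7, 133 and 94.0 FPKM in mESC 1 to 4 and 122, 141, 130.0 and 94.1 FPKM in mEpiSC 1 to 4. Zfp106, an RNA-binding protein, was at 61.7, 63.3, 56.6 and 51.5 FPKM in mESC 1 to 4 and 60.3, 55.9, 58.8 and 53.9 FPKM in mEpiSC 1 to 4. The states overlapped in both, and the 95% interval of the log2 fold change was -0.45 to 0.36 for Zfp207 and -0.27 to 0.22 for Zfp106, so a change beyond 2-fold lies outside it. Zfp219 was at 27.5, 27.5, 22.3 and 23.5 FPKM in mESC 1 to 4 and 26.3, 34.5, 48.0 and 20.8 FPKM in mEpiSC 1 to 4 (interval -0.23 to 0.81) and Zfp706 at 17.5, 20.5, 22.3 and 37.4 FPKM in mESC 1 to 4 and 30.4, 26.2, 24.4 and 35.8 FPKM in mEpiSC 1 to 4 (interval -0.22 to 0.81). These 4 are the members of highest level that missed the test with an interval inside 2-fold. Over all members, 212 of 289 (73.4%) had an interval within 2-fold, called or not, beside 62.2% of all genes tested.

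The other 2 of the 5 passed the test. Zfp664 was at 29.1, 34.6, 27.6 and 32.1 FPKM in mESC 1 to 4 and 56.4, 52.1, 58.1 and 45.7 FPKM in mEpiSC 1 to 4 (log2 fold change 0.76, SE 0.12, adjusted p = 0.00178), and Zfp740 at 37.2, 29.4, 44.2 and 49.7 FPKM in mESC 1 to 4 and 24.2, 23.3, 25.2 and 25.3 FPKM in mEpiSC 1 to 4 (log2 fold change -0.67, SE 0.16, adjusted p = 0.011). Zfp664 was higher and Zfp740 lower in every mEpiSC library. The call of Zfp740 was lost with the fibroblast covariate and with averaged lines.

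Members with the KRAB box pattern fell more often than they rose, and members without the pattern rose more often than they fell. The box was looked for as a codon pattern in GENCODE vM21 protein-coding transcripts of the same names, which was possible for 288 of 289 members. A box that departs from this pattern is missed, so members without the pattern can still carry a KRAB box. Of 125 members with the pattern, 13 rose (10.4%) and 29 fell (23.2%), with a median log2 fold change of -0.02. Of 163 without it, 38 rose (23.3%) and 16 fell (9.82%), with a median of 0.07. Of all genes tested, 23.1% rose and 14.2% fell. With the pattern, falls fixed by the FPKM rule include Zfp600, Zfp534, Zfp936 and Zfp819, and rises Zfp30, Zfp316 and Zfp128. Without the pattern, they include Zfp273 among the falls and Zfp202 and Zfp503 among the rises. Counts without the members fixed by the rule were not made. Among members with at most 10% of windows shared with other genes, 11 rose and 17 fell of 93 with the pattern, and 33 rose and 10 fell of 131 without it. With quantile normalization, members without the pattern had 25 rises and 27 falls, so their direction turned there. With median ratio scaling they had 31 and 20. Members with the pattern had more falls than rises under both scalings (8 rises and 35 falls with median ratio scaling, 8 and 38 with quantile normalization). No test of the difference between the 2 groups was made.

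The number of C2H2 fingers found in the same transcripts had a median of 10 and ran from 0 to 36. It was 12 for members with the KRAB pattern and 8 for those without it. Of 61 members with 15 or more fingers, 4 rose (6.56%) and 14 fell (22.95%), beside 23.1% and 14.2% of all genes. The 14 include Zfp600, Zfp534 and Zfp273, whose falls the FPKM rule fixed. Of 100 with 10 to 14 fingers 18 rose and 16 fell, of 83 with 5 to 9 fingers 21 rose (25.3%) and 10 fell (12.05%), close to all genes, and of 36 with 1 to 4 fingers 4 rose and 3 fell. The finger and KRAB groups overlap, and so are not separate observations. No finger was found in 8 members, among them Zfp36, Zfp703 and Zfp503, which rose, and Zfp185 and Zfp259, which fell. The call of Zfp185 was lost in 7 settings.

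**Figure D3:**
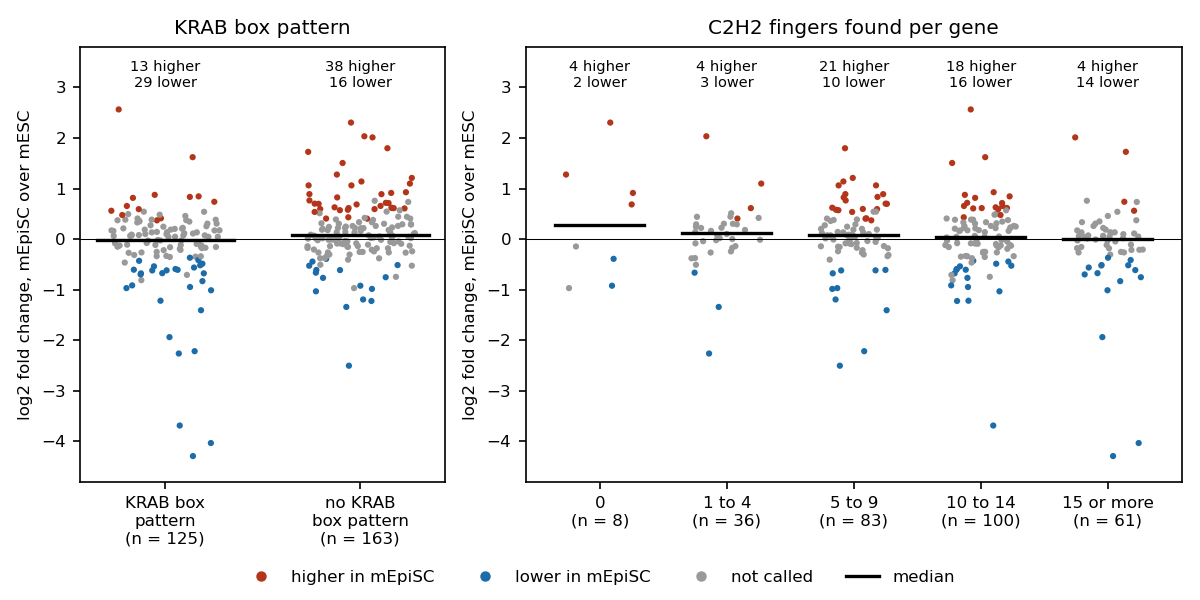
Log2 fold change between states (y axis) of Zfp genes grouped by KRAB box pattern (left) and by number of C2H2 fingers found (right), with points coloured by call and the group median as a black bar. Members with the KRAB pattern have 29 falls and 13 rises, those without it 16 and 38, and the group medians are close to 0. The FPKM rule fixed the direction of 12 of the genes shown.

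Promoters of members that fell had a lower median number of CG dinucleotides than those of members that rose, a difference for which no test was made. RefSeq promoters (GRCm38.p6, 250 bases before to 50 after the start) were at hand for 237 of 289 members. For a gene with several promoters the highest count was taken. The median number of CG was 10 for 39 members that fell, 21 for 39 that rose and 16 for 159 that missed the test, beside 23 for 8309 tested genes with a promoter. It was 12 with the KRAB pattern and 20 without it. The 250 bases before the start of Zfp936 (chr7:43177340-43177589, plus strand), which fell, hold 6 CG, and those of Zfp768 (chr7:127345315-127345564, minus strand), which rose, hold 29. They are printed to show the contrast, with CG in capitals.
Zfp936: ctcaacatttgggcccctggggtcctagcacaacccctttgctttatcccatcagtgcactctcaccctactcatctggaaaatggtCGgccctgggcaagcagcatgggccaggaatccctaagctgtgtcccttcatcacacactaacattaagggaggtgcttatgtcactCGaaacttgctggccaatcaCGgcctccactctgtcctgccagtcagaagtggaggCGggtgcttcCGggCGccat
Zfp768: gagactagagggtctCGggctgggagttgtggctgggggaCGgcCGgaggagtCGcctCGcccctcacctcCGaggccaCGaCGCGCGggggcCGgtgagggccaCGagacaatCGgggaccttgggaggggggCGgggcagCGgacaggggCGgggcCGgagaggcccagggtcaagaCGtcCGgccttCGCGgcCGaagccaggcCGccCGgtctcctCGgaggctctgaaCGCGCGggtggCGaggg

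Zfp genes lay in clusters. Joining members on a chromosome with gaps of at most 500 kb gave 25 clusters of at least 3 members, which held 154 of 289 members (53.3%). Of these clusters 9 were on chromosome 7, with 61 members, and chromosome 7 held 73 members in all. The KRAB pattern was in 59.1% of members inside clusters and 25.2% outside. Inside clusters 22 rose (14.3%) and 27 fell (17.5%), and outside 29 rose (21.5%) and 18 fell (13.3%) of 135, beside 23.1% and 14.2% of all genes. The balance inside clusters turned to more rises with replicates 1 to 3 only (33 and 24), without mEpiSC 4 (31 and 26) and with 1 mean per line (32 and 30), and it was 16 and 41 with quantile normalization. In 7 clusters members moved in both directions, in 7 some only rose, in 7 some only fell and in 4 none was called. In no cluster did all members change. Zfp600 and Zfp534 count as outside clusters, because the entries between them have other symbols and the gap between these 2 members is over 500 kb. With gaps of 200 kb there were 22 clusters with 126 members, and with 1 Mb 26 with 167.

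The largest cluster (chr17:21145904-23736454, mm9) had 20 members, of which 3 rose and 4 fell, beside 23.1% higher and 14.2% lower of all genes. The risers were Zfp944, Zfp758 and Zfp946, consecutive members of the cluster, and the fallers were Zfp52, Zfp948, Zfp229 and Zfp213. Zfp944 was at 3.91, 4.88, 4.3 and 3.13 FPKM in mESC 1 to 4 and 7.25, 7.43, 7.99 and 4.21 FPKM in mEpiSC 1 to 4 (log2 fold change 0.59, SE 0.20, adjusted p = 0.0453) and Zfp758 at 2.22, 2.32, 2.34 and 1.26 FPKM in mESC 1 to 4 and 4.03, 5.39, 5.28 and 3.16 FPKM in mEpiSC 1 to 4 (log2 fold change 0.84, SE 0.20, adjusted p = 0.0103). Zfp758 did not overlap between states, while mEpiSC 4 of Zfp944 lay inside the mESC range. The call of Zfp944 was lost in 11 settings, both scalings among them, and that of Zfp758 with the fibroblast covariate and averaged lines. Zfp946 kept its call in all of them.

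Promoters in this cluster share a 16-base element. CACGTGACCGGAACCG is the longest string common to the RefSeq promoters of the 3 risers, searched on both strands in the 300 bases around the start. It occurred in 5 of 237 members (2.11%) and in none of 26788 other genes of the RefSeq table, 0.0185% of all 27025. The 5 were Zfp942, Zfp943, Zfp944, Zfp758 and Zfp946, all of this cluster. The 3 risers are among them by construction, since the string was taken from their promoters. The share of members with the element is therefore a description. The starts of Zfp944 and Zfp758 lie 63 bases apart on opposite strands, and those of Zfp942 and Zfp943 95 bases apart, so each pair shares 1 promoter region. The first 8 bases of the element, CACGTGAC, occurred in 6.75% of members, the 3 risers included by construction, and 2.55% of all genes. The element was looked for after the values of these genes were known, and a match is no evidence of binding. The 30 bases around it are shown for a gene of each kind, Zfp946 (chr17:22424186-22424215, plus strand) and the Zfp944 and Zfp758 pair (chr17:22361406-22361435, minus strand), with the element in capitals.
Zfp946: gggaacCACGTGACCGGAACCGgggccgta
Zfp944: cgctgtCACGTGACCGGAACCGtggtgtcc

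The other 2 genes with the element moved less. Zfp942 was at 6.86, 7.52, 5.05 and 3.48 FPKM in mESC 1 to 4 and 6.31, 6.52, 7.3 and 5.42 FPKM in mEpiSC 1 to 4 (log2 fold change 0.17, SE 0.21, adjusted p = 0.551). Zfp943 was at 2.15, 2.49, 2.1 and 1.54 FPKM in mESC 1 to 4 and 2.84, 2.95, 2.72 and 2.82 FPKM in mEpiSC 1 to 4 (log2 fold change 0.33, SE 0.14, adjusted p = 0.0953). The libraries overlapped for Zfp942 and not for Zfp943, and neither passed the test.

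The second cluster (chr7:30553570-30954746) had 14 members, 3 higher and 3 lower, and here and below the shares over all genes were 23.1% and 14.2%. Zfp30 was at 0.656, 0.797, 0.964 and 0.474 FPKM in mESC 1 to 4 and 1.34, 1.83, 3.15 and 2.53 FPKM in mEpiSC 1 to 4 (log2 fold change 0.87, SE 0.20), the largest rise and a member through mEpiSC alone, and Zfp566 at 7.15, 8.18, 8.83 and 7.75 FPKM in mESC 1 to 4 and 4.94, 5.32, 4.83 and 3.48 FPKM in mEpiSC 1 to 4 (log2 fold change -0.68, SE 0.14, adjusted p = 0.00649), the largest fall. Zfp566 was without overlap, and its call was lost with averaged lines. Zfp568, described above, was the member of highest level. The third (chr13:67139529-67927937) had 11 members, of which 0 rose and 3 fell (Zfp459, Zfp493 and Zfp273, the last through the FPKM rule). Its largest positive value was that of Zfp58, at 3.42, 3.17, 3.15 and 2.77 FPKM in mESC 1 to 4 and 4.97, 3.49, 4.47 and 3.68 FPKM in mEpiSC 1 to 4, which missed the test (adjusted p = 0.116), and 50.2% of its windows are shared. The fourth (chr17:32902441-33768659) had 11 members, 1 higher and 1 lower. Zfp871 was at 11.8, 12.9, 14.4 and 8.79 FPKM in mESC 1 to 4 and 19.5, 17.9, 22.1 and 13.2 FPKM in mEpiSC 1 to 4 (log2 fold change 0.56, SE 0.19, adjusted p = 0.0455) and Zfp870 at 3.36, 2.7, 4.76 and 4.55 FPKM in mESC 1 to 4 and 1.86, 2.41, 2.4 and 2.48 FPKM in mEpiSC 1 to 4 (log2 fold change -0.54, SE 0.18, adjusted p = 0.0391). Both calls rest on small differences, and they were lost in 11 and 10 settings.

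Between the 2 mESC lines, 1 member was called, 0.346% of members beside 0.762% of all genes. Zfp951 (chr5:105242186-105289087), a KRAB gene, was at 1.82, 1.49, 9.51 and 7.28 FPKM in mESC 1 to 4 and 1.92, 2.94, 2.86 and 2.78 FPKM in mEpiSC 1 to 4. Both ESF175/1 libraries were above both ESF122 libraries, with the mEpiSC libraries near ESF122 (ESF175/1 over ESF122, log2 fold change 1.82, SE 0.19, adjusted p = 0.0138). An unadjusted p under 0.05 was reached by 30 members (10.4%) beside 14.9% of all genes. The next 4 by p were Zfp36 (-1.19), Zfp97 (0.97), Zfp608 (-1.22) and Zfp426 (-0.58), none past the threshold. Zfp97 was at 0.767, 0.751, 2.37 and 2.51 FPKM in mESC 1 to 4 and 1.83, 2.76, 2.86 and 2.38 FPKM in mEpiSC 1 to 4, and 83.1% of its windows are shared with other genes. Zfp426 was at 4.38, 4.94, 2.68 and 2.87 FPKM in mESC 1 to 4 and 5.18, 6.18, 5.72 and 5.0 FPKM in mEpiSC 1 to 4.

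Among the 3 mEpiSC lines, 2 members were called by the F test, 0.692% of members beside 2.6% of all genes. Zfp365 (chr10:67348852-67375410) was at 13.3, 10.7, 10.1 and 7.02 FPKM in mESC 1 to 4 and 9.25, 1.93, 1.83 and 10.9 FPKM in mEpiSC 1 to 4 (adjusted p = 0.0212). Both EpiSC7 libraries were low, while EpiSC5 and EpiSC9 were in the mESC range. Zfp345 (chr2:150296726-150310799) was at 6.47, 5.96, 7.66 and 6.16 FPKM in mESC 1 to 4 and 1.17, 5.47, 4.68 and 3.22 FPKM in mEpiSC 1 to 4 (adjusted p = 0.0446), lowest in EpiSC5, with 30.6% of windows shared. EpiSC5 and EpiSC9 have 1 library each and are assumed to vary like EpiSC7 and the mESC lines, so the value of Zfp345 rests on 1 library. Both calls were lost without mEpiSC 2 (adjusted p = 0.0822 for Zfp365 and 0.153 for Zfp345) or mEpiSC 3 (0.0971 and 0.128).

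The next 3 by p were Zfp423, Zfp628 and Zfp185. Zfp423, a regulator of fat cell commitment, was at 5.49, 7.86, 6.35 and 5.39 FPKM in mESC 1 to 4 and 7.92, 10.6, 8.77 and 2.85 FPKM in mEpiSC 1 to 4. Zfp628 was at 2.28, 2.89, 1.7 and 1.14 FPKM in mESC 1 to 4 and 5.18, 4.91, 5.19 and 1.5 FPKM in mEpiSC 1 to 4. In both EpiSC9 was the lowest mEpiSC library. Zfp185, an actin-associated protein in which no C2H2 finger was found, was at 4.92, 5.41, 4.33 and 4.74 FPKM in mESC 1 to 4 and 1.62, 1.23, 1.86 and 4.38 FPKM in mEpiSC 1 to 4, with EpiSC9 the highest mEpiSC library. An unadjusted p under 0.05 was reached by 47 members (16.3%) beside 24.7% of all genes. EpiSC9 was the line farthest from the middle line in 150 members (51.9%, beside 54.4% of all genes), EpiSC5 in 81 (28.03%, beside 27.5%) and EpiSC7 in 58 (20.1%, beside 18.2%). EpiSC9 is the single library mEpiSC 4, which stands apart with mESC 4, and EpiSC7 is a mean of 2 libraries, so line and library cannot be told apart.

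**Figure D4:**
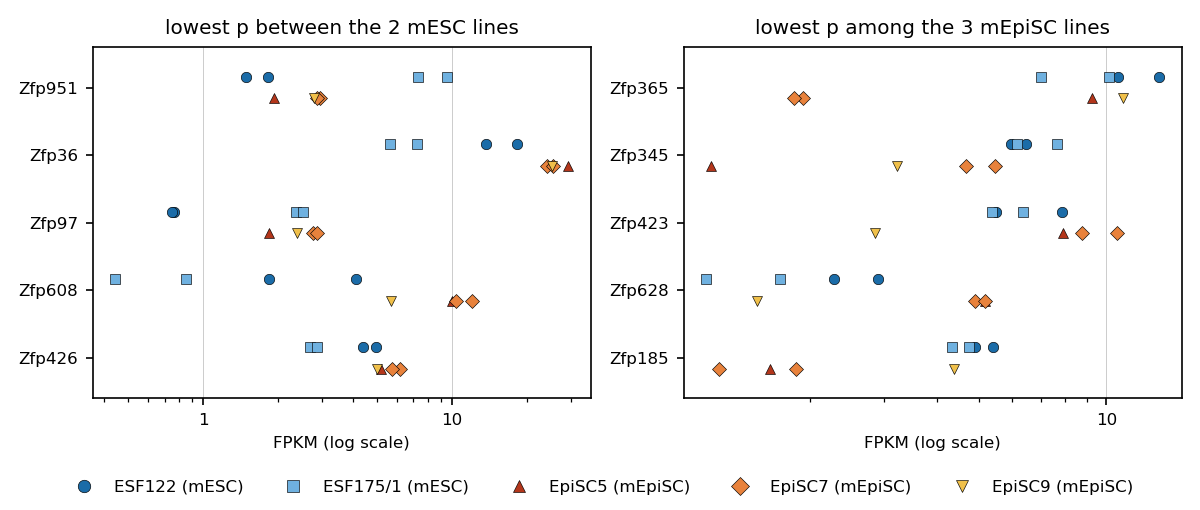
FPKM on a log axis in each of the 8 libraries for the 5 Zfp genes of lowest p between the 2 mESC lines (left) and among the 3 mEpiSC lines (right), marked by cell line. Zfp951 separates ESF175/1 from ESF122, and Zfp365 is low in both EpiSC7 libraries.

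Messages for the proteins that KRAB zinc fingers recruit were counted in the same way. Of 29 tested genes for KRAB cofactors and heterochromatin, 7 were higher and 7 lower in mEpiSC (24.1% each, beside 23.1% and 14.2% of all genes), which became 3 and 4 with the random block and 3 and 3 with averaged lines. Trim28, the corepressor itself, fell from 404 ± 74.7 FPKM to 259.9 ± 30.8 FPKM (SD, n = 4 libraries, log2 fold change -0.62, limma adjusted p = 0.0139), and Cbx1, a heterochromatin protein, fell from 172 ± 24.8 FPKM to 93.8 ± 11.0 FPKM (-0.86, limma adjusted p = 0.00224). Setdb1 missed the test, at 30.7 ± 2.45 FPKM and 28.3 ± 6.66 FPKM (-0.14, limma adjusted p = 0.566). Suv39h1, a histone methyltransferase of heterochromatin, rose by 0.80 and the heterochromatin protein Cbx5 by 0.50. The calls of Trim28 and Cbx5 were lost with the fibroblast covariate (adjusted p = 0.0892 and 0.142) with averaged lines (0.114 and 0.147) and with the random block (0.0546 and 0.0697), and that of Cbx5 with median ratio scaling (0.0577). Beside 23.1% higher and 14.2% lower of all genes, related families gave 1 higher and 4 lower of 11 Zscan genes, 2 and 1 of 6 Zkscan genes, 7 and 8 of 34 Zbtb genes, and 3 and 2 of 18 Zfp genes with a letter after the digits, of which the last turned to 2 and 3 with median ratio scaling and 1 and 4 with quantile normalization. With averaged lines the Zbtb counts were 2 and 3. The lower Zscan genes include Zscan4a, Zscan4c and Zscan4d, which passed the FPKM rule through mESC alone. The higher Zbtb genes include Zbtb42, which passed it through mEpiSC alone. These genes had to differ between states, so the family counts are descriptions.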

How the data were processed

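Polyadenylated RNA of 8 libraries was sequenced, 4 of mESC and 4 of mEpiSC. Each library has its own deposited table of 23699 entries, with the FPKM of each gene, 2 interval bounds and a status. TopHat2 2.0.6, Cufflinks 2.0.2 and the build mm9 are named in the submitters' processing notes. Annotation, options and strand use: not given in the sources used here. Reads from overlapping or antisense genes therefore cannot be separated. The number of fragments per library is not listed, so no counting interval is given. Positions in mm9 are printed as listed and were not combined with GRCm38.

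The members, lists and rules for named genes were chosen with earlier results of these data known. States were compared with limma 3.58.1 (trend and robust, R 4.3.3, statmod 1.5.0) on log2(FPKM + 1) over 11556 genes at 1 locus that reached 1 FPKM in 4 or more libraries, with Benjamini-Hochberg adjustment over all of them. Lines were compared in a fit with 1 mean per line, by a contrast for mESC and an F test for mEpiSC. The fits were checked on simulated data. Genes with full values included the 10 largest changes in each direction, taken among called members whose libraries did not overlap between states. They also included the 5 highest levels, 4 high levels that missed the test, 5 per line comparison and the extremes of 4 clusters. The last were 3 genes on each side of the FPKM rule and up to 4 of each role list.

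Settings tried were quantile normalization, median ratio scaling, pseudocounts of 0.1 and 5, a stricter filter (mean of 5 FPKM or more) and none, status OK, no trend, a random block for cell line, a replicate block, 1 mean per line, a fibroblast covariate, replicates 1 to 3 only and leaving out each library. Averaging the libraries of a line, the chromosome 4 run, the promoter element and the CG counts were added after the data were seen.

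Replicate numbers are shared by the states. Deviations of same-numbered libraries from their state means correlated at 0.22, 0.15, 0.18 and 0.51 for replicates 1 to 4, all over 0.1. A replicate block was among the settings tried, and the main fit had no replicate term. No label states that the numbers pair libraries, and for replicates 2 and 3 another number correlated better (0.21).

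Sequences came from GENCODE vM21 transcripts and the RefSeq promoter table (GRCm38.p6), with 12 members matched under a newer symbol. Fingers and the KRAB box are codon patterns, so a finger or box that departs from them is missed. The KRAB pattern first written matched 0 members because it was 1 residue short, and the corrected one was used. Promoters were aligned with Biopython.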

Additional observations from a re-analysis of the deposited data

Results flagged for a closer look

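Among the genes given with full values, 10 of 102 groups of 4 libraries had a library whose gap to the nearest other, divided by the range, was over Dixon's 95% critical value. Chance gives about 1 in 20. The cause of none was tested.

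In mESC, Zfp259 was high in mESC 4 at 24.4 FPKM beside 18.5 to 19.4 in the others, Zfp296 in mESC 3 at 16.2 FPKM beside 12.4 to 13.0, and Zfp687 in mESC 2 at 17.7 FPKM beside 13.2 to 13.3. Zfp768 was high in mESC 2 at 2.44 FPKM beside 1.11 to 1.23, and Zfp773 in mESC 3 at 1.32 FPKM beside 1.03 to 1.07. In mEpiSC, EpiSC9 was low for Zfp628 at 1.50 FPKM beside 4.91 to 5.19 and for Zfp644 at 10.0 FPKM beside 15.5 to 16.0. EpiSC5 was low for Zfp870 at 1.86 FPKM beside 2.40 to 2.48 and for Zfp951 at 1.92 FPKM beside 2.78 to 2.94. Zfp932 was high in mEpiSC 2 at 7.04 FPKM beside 5.64 to 5.87.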

How the results depend on the processing

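Of the 51 members called higher and 45 called lower in mEpiSC, 26 and 27 kept the call under all 18 planned settings of the same genes, and 10 and 19 when averaged lines were added. The higher count was 33 with a random block for cell line, 33 with quantile normalization, 20 with a mean of at least 5 FPKM (136 members tested) and 10 with averaged lines. The lower count was 25 with that filter and 19 with averaged lines. Leaving out single libraries gave 34 to 63 higher and 31 to 47 lower. The count between mESC lines was 0 with that filter, 2 without trend, 3 with a pseudocount of 0.1, 2 with quantile normalization and 0 to 20 without single libraries. The 20 came without mESC 3, where ESF175/1 had 1 library whose spread was taken from the other lines. The count among mEpiSC lines was 1 with that filter, 1 with median ratio scaling, 4 with quantile normalization and 0 without mEpiSC 2 or mEpiSC 3. The causes were not tested.

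With the replicate block 55 members were higher and 50 lower, 91 of 96 calls were kept, and Zfp426 (adjusted p = 0.046) and Zfp628 (adjusted p = 0.025) passed the test. The block changed no other call of a gene given with full values.

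Directions turned for 6 genes, none of them called between states. Zfp106 was -0.08 to 0.018 without single libraries. Zfp207 was 0.015 with quantile normalization and -0.18 to 0.075 without single libraries. Zfp3 was -0.016 with median ratio scaling, -0.11 with quantile normalization and -0.030 to 0.10 without single libraries. Zfp423 was -0.012 with 1 mean per line and with averaged lines, -0.15 with the fibroblast covariate, -0.039 with quantile normalization and -0.053 to 0.48 without single libraries. Zfp644 was -0.026 with 1 mean per line and with averaged lines, -0.0060 with the random block, -0.080 with the covariate, -0.082 with median ratio scaling, -0.064 with quantile normalization and -0.035 to 0.17 without single libraries. Zfp951 was 0.10 with the covariate.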

Other observations

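The 45 Zfp genes at 1 locus that were no members included 12 with at least 1 library at 1 FPKM or more and 33 below 1 FPKM in all, of which 11 stayed below 0.1 FPKM. Zfp750, a regulator of epidermal differentiation, was at 2.44, 1.92, 3.46 and 0.668 FPKM in mESC 1 to 4 and at 0.153, 0.163, 0.134 and 0.546 FPKM in mEpiSC 1 to 4. Zfp429 was at 2.48 and 2.20 FPKM in the ESF122 libraries and at 0.285 and 0.200 FPKM in the ESF175/1 libraries, with 0.161 to 0.228 FPKM in mEpiSC. Zfp711, an X-linked gene, was at 0.301 to 0.580 FPKM in mESC and 0.840 to 2.36 FPKM in mEpiSC. These 3 genes were chosen after their values were seen and were not tested.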
